A study of Mus musculus with 11 samples.

Results

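The Fam19a family of mouse (Fam19a1 to Fam19a5, called Tafa1 to Tafa5 in current RefSeq) was described in J-RGCs, a retinal ganglion cell type marked by the adhesion molecule gene Jam2, with and without the T-box transcription factor gene Tbr1. The members are the 5 rows whose symbol names the family, of 24421 genes in the count files, and all 5 were among the 13957 genes that passed the low-count filter. The family was picked because Fam19a4 was lower in Tbr1 mutants, so the genotype difference of Fam19a4 is given as a description without a test. The other 4 members were taken by family name. Both groups were postnatal day 4 to 5 retinas of mixed C57BL/6 and CD1 background, in which a J-RGC-specific transgene, not named in the labels, drives Green Fluorescent Protein. The groups were WT, here the controls, and Tbr1 KO. The labels do not give the Tbr1 allele or whether it was removed in the retina alone. Each library came from a pool of 100 sorted cells, with 5 control libraries from 4 animals (a, b, c and d, of which b gave libraries 2 and 3) and 6 mutant libraries from 4 animals (a with libraries 1 and 2, b with libraries 3 and 4, c with library 5 and d with library 6).

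Fam19a genes encode small secreted proteins with conserved cysteines, distantly related to CC chemokines and made mainly in the nervous system. Proposed partners on the cell surface include neurexins, the presynaptic adhesion proteins, and several G-protein-coupled receptors. Fam19a4 is best known from sensory ganglia, where it marks low-threshold C-fibre mechanoreceptors and its protein modulates mechanical pain after injury, and Fam19a5 is widely expressed in brain.

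Total counts over genes ranged from 8609845 to 34718693 per library. Tbr1 transcripts were at 155 to 193 CPM (counts scaled to a common library total with TMM) in control animals and at 94.2 to 145 CPM in mutants. Since the deleted part of the gene is not given, whether these levels check the genotype is not known. Summed CPM of 11 ganglion cell markers was 15757 to 18172 in control animals and 16211 to 18158 in mutants, all 11 markers being counted in every animal. Markers of other retinal cells were higher in the mutant pools for several lists. The sum of 8 amacrine markers was 295 to 546 CPM in controls and 609 to 852 CPM in mutants. For 4 horizontal cell markers the sums were 47.1 to 65.7 and 97.9 to 138 CPM, 1 of these markers being at 0 in every animal. For 10 Müller glia markers they were 323 to 423 and 464 to 717 CPM. These 3 sums did not overlap between genotypes, while those of photoreceptor, bipolar, microglia, astrocyte, vascular and red blood cell markers did. Among single tested genes, 5.06% did not overlap. Of 9 Müller markers tested, 2 were called by the edgeR fit described below, beside 0.287% of all tested genes. The marker lists were written with earlier results of these data known, so this count and the Müller sums are a description. Of 6 amacrine and 3 horizontal markers tested, 0 were called. The part of these lists in the differences below was not tested. In pools, fewer cells that express a gene and less RNA per cell cannot be told apart.

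Fam19a4 and Fam19a1 are neighbours on chromosome 6, on opposite strands, with their 3′ ends 174 kb apart (GENCODE M21 on GRCm38). Fam19a4 spans 96831203 to 97060413 on the minus strand and Fam19a1 spans 96113154 to 96657198 on the plus strand. The 250 bases before each start are shown because these linked genes had very different levels in control J-RGCs, and because the factor targeted in the mutants belongs to a family that binds T-box motifs. The sequences are from RefSeq (GRCm38.p6) and read 5′ to 3′ on the gene's strand, with capitals marking matches on either strand to the motifs searched. The Fam19a4 window is chr6:97060412-97060661 (minus strand) and that of Fam19a1 is chr6:96112904-96113153 (plus strand).
Fam19a4: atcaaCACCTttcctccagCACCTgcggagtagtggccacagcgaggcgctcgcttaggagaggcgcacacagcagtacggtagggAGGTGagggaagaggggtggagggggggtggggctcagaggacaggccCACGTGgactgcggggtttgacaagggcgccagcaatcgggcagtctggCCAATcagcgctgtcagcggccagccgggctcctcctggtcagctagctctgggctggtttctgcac
Fam19a1: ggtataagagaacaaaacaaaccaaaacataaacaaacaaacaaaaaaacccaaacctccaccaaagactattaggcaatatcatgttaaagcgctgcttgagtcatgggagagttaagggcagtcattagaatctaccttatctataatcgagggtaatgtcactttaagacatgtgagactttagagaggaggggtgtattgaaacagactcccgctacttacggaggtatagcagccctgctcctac
The T-box core was searched as GGTGTGA and as the shorter AGGTG with which some T-box sites begin. The CCAAT box was searched by those letters, the E-box as CACGTG, the TATA box as TATAAA and the GC box as GGGCGG. Matches of the shorter T-box letters can overlap an E-box of another form. The T-box core was in 0 of the 6 windows of the family and in 3.33% of all 32851 windows of that length. The shorter AGGTG, which 46.0% of windows hold at least once, matched 3 times in the Fam19a4 window, starting 245, 231 and 164 bases before the start. The share of windows with 3 matches was not computed. AGGTG also matched 1 time in the Fam19a2 window (50 bases before the start) and 1 time in the Fam19a3 window (191 bases before). It matched 0 times in the windows of Fam19a1 and Fam19a5. The Fam19a4 window also held the CCAAT box 67 bases before the start (33.8% of windows) and the E-box 116 bases before it (6.02% of windows). The Fam19a2 window held the CCAAT box too, 10 bases before its start, and none of the 6 motifs was in the Fam19a1 window. The Fam19a4 window was 65.2% G or C with 13 CpG pairs, against 40.8% and 4 for Fam19a1 and medians of 52.4% and 6 over all windows. Both windows of Fam19a5 were richer still, at 83.6% and 81.6% with 48 and 38 CpG pairs, and each held 4 GC boxes, a motif found in 32.7% of windows. These letter matches are a description and do not show binding.

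In control J-RGCs, 3 members made up nearly the whole of the family's signal. Fam19a5 was at 72.6 ± 15.5 CPM, Fam19a4 at 54.2 ± 7.66 CPM and Fam19a2 at 29.0 ± 5.28 CPM (SD, n = 4 animals). Fam19a1 and Fam19a3 together held under a hundredth of the summed family CPM, with mean shares of 0.227% and 0.287%. Levels of different genes were compared per kb of annotated exon, using the merged GENCODE exons of 5.69 kb for Fam19a4, 4.69 kb for Fam19a2, 4.48 kb for Fam19a3, 4.21 kb for Fam19a1 and 2.91 kb for Fam19a5. On this per-length scale the control animals ranged from 20.2 to 29.9 CPM per kb for Fam19a5, from 8.76 to 11.5 for Fam19a4 and from 4.85 to 7.61 for Fam19a2, with no overlap between these neighbours in the order. Fam19a3 (0 to 0.490 CPM per kb) and Fam19a1 (0 to 0.246) overlapped each other. Among tested genes with an exon length, the control level per kb was at percentile 83.5 for Fam19a5, 66.5 for Fam19a4, 57.2 for Fam19a2, 2.69 for Fam19a3 and 1.70 for Fam19a1.

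Fam19a4, whose fall chose the family, went from the second most abundant member per kb in controls to a minor one in mutants. Control libraries 1 to 5 held 49.7, 58.1, 26.5, 49.8 and 65.4 CPM of Fam19a4. Mutant libraries 1 to 6 held 3.42, 0, 2.89, 2.01, 8.26 and 10.4 CPM. The lowest control library, 1 of the pair from animal b, was still above every mutant library, and mutant animals c and d were higher than mutant animals a and b. Summed per animal, Fam19a4 was at 49.9, 51.2, 49.9 and 65.6 CPM in control animals a to d and at 2.23, 2.55, 8.27 and 10.4 CPM in mutant animals a to d. The mutant mean was 10.8% of the control mean, with a log2 fold change of -3.21 ± 0.47 (SE), and the lowest control animal was 4.79-fold above the highest mutant animal. Of the 5 members, 1 was called and was lower in the mutants, where the edgeR quasi-likelihood fit called 0.287% of all tested genes in either direction, 0.201% as lower and 0.086% as higher. Since that contrast chose the family, the count carries no further weight. Without control animal b, Fam19a4 just missed the threshold at a log2 fold change of -3.24, which is likewise a description. The sum of ganglion cell markers, given above, overlapped between genotypes, while the amacrine, horizontal and Müller sums were higher in every mutant animal. Jam2, the marker of J-RGCs, was lower too, at 452 to 619 CPM in control animals and 87.4 to 130.2 CPM in mutants. With Tbr1 added, the J-RGC marker sum was 614 to 783 CPM in controls and 196 to 265 CPM in mutants. The part of these markers in the Fam19a4 difference was not tested.

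**Figure D1:**
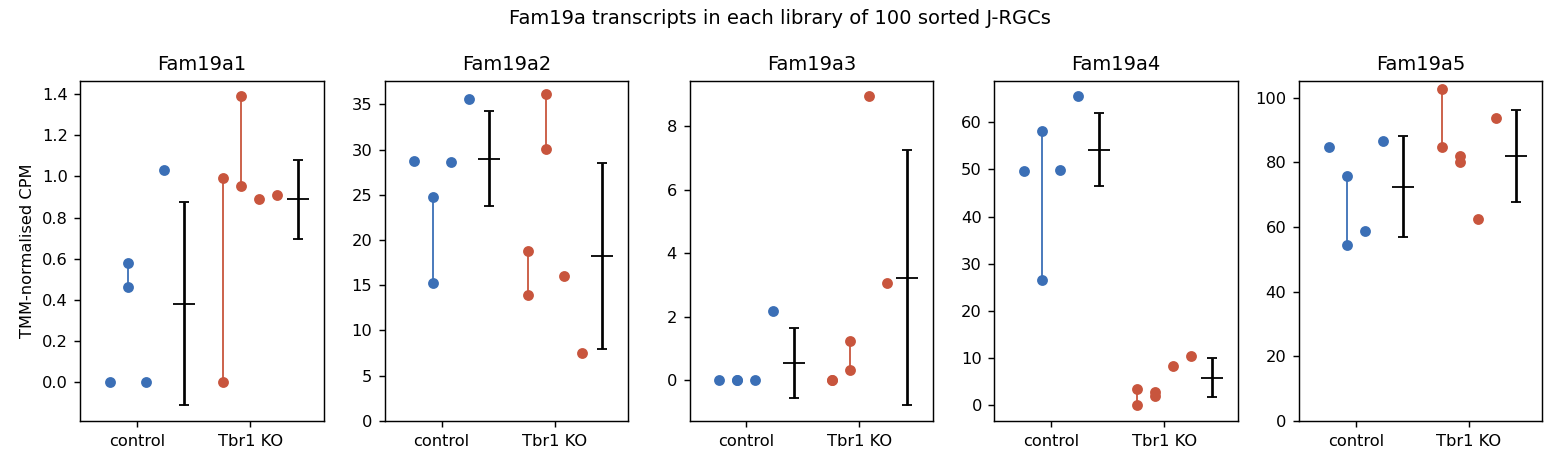
TMM-normalised CPM of the 5 Fam19a members (vertical axes, 1 scale per panel) in each of 11 libraries, grouped by genotype, with pools of 1 animal joined by a line and the black bar giving the mean ± SD over 4 animals. For Fam19a4, chosen for its fall in this contrast, all 5 control points (26.5 to 65.4 CPM) lie above all 6 mutant points (0 to 10.4 CPM). For the other 4 members the genotypes overlap. Compared by animal, 5.06% of all tested genes did not overlap. Points joined by a line are not independent.

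Pools of the same animal showed how far libraries of 100 cells can differ in Fam19a4. In control animal b, the first pool was 2.19-fold above the second (95% counting interval 1.90 to 2.52), beyond counting error. Fam19a2 was also higher in that first pool (ratio 1.63, interval 1.35 to 1.97), whereas Fam19a5 was lower (ratio 0.719, interval 0.656 to 0.789). The second pool was the shallowest library, with 8609845 counts against 31033784 in the first, and the part of depth was not tested. In mutant animal b the 2 pools gave 2.89 and 2.01 CPM of Fam19a4, a ratio of 1.44 with an interval of 0.992 to 2.11. In mutant animal a, Fam19a4 had 100 counts in library 1 and 0 in library 2, where 3 counts, the most that a count of 0 allows, would be 0.192 CPM. Among 630 tested genes with 80 to 120 counts in library 1 of that animal, 34 (5.40%) were likewise at 0 in library 2, so such zeros were uncommon between these pools. Reads without molecular identifiers are not independent molecules, so the intervals cover counting error only.

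Fam19a5 was the most abundant member in both genotypes. Control animals a to d held 85.01, 59.5, 58.8 and 86.9 CPM, and mutant animals a to d held 91.0, 81.0, 62.4 and 93.9 CPM. The ranges overlapped, and the mean was 82.1 ± 14.2 CPM in mutants (SD, n = 4). The log2 fold change was 0.18 ± 0.19 (SE), with a 95% interval of -0.23 to 0.59 and an edgeR Benjamini-Hochberg adjusted p of 0.941. This interval, the narrowest of the family, excludes a change of the size measured for Fam19a4.

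Fam19a2 varied more between mutant animals than between control animals. Control animals a to d held 28.8, 22.7, 28.8 and 35.7 CPM of Fam19a2. Mutant animals a to d held 17.1, 32.2, 16.03 and 7.55 CPM. Mutant animals a, c and d were below every control animal, while mutant animal b lay inside the control range. Its 2 pools were at 30.1 and 36.1 CPM, the second above the highest control animal. The 2 pools of control animal b were at 24.8 and 15.2 CPM, the second below mutant animals a and c. The log2 fold change was -0.67 ± 0.37 (SE), with a 95% interval of -1.47 to 0.14, and did not pass the edgeR test (Benjamini-Hochberg adjusted p = 0.798). It was -1.09 without mutant animal b, -0.41 without mutant animal d, -0.39 with the library as the replicate and -0.27 with the library number as a replicate block. Its Benjamini-Hochberg adjusted p ran from 0.580 to 0.962 over all alternatives, each by edgeR except that of DESeq2 (0.713). Fam19a2 spans 123263996 to 123741204 on chromosome 10, and no exon of another annotated gene overlaps its exons.

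**Figure D2:**
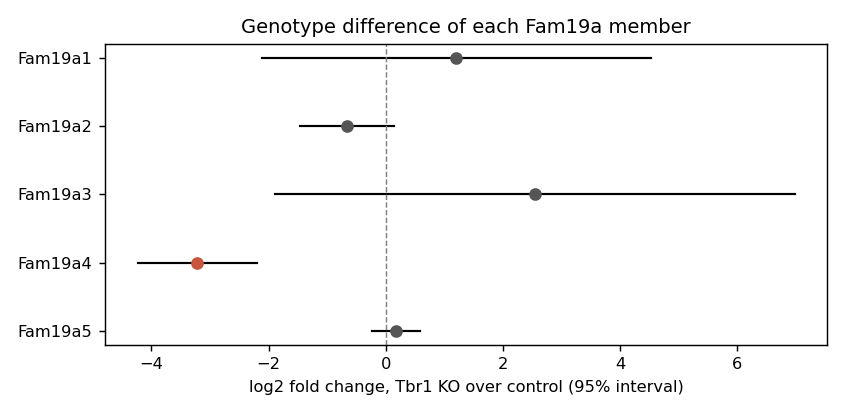
Log2 fold change of each Fam19a member, Tbr1 KO over control animals (horizontal axis), as a point with its 95% interval from the fit over all genes. The interval of Fam19a4 runs from -4.23 to -2.20 and the intervals of the other 4 members include 0. Fam19a4 was chosen for its fall in this contrast, so its interval is a description and not a test.

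Fam19a1 was close to the limit of detection. It had 52 counts over the control animals and 150 over the mutants. It was at 0 in control libraries 1 and 4 and in mutant library 2, and at 0.464 to 1.39 CPM in the 8 other libraries. Zeros in 3 of 11 libraries were also the median for 332 tested genes within 20% of its mean level. The log2 fold change of 1.21 ± 1.53 (SE; 95% interval -2.11 to 4.53) leaves its direction undetermined at this depth (edgeR Benjamini-Hochberg adjusted p = 0.955). Its linked neighbour Fam19a4 had 7024 counts over the same control animals.

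Fam19a3 was counted in 4 animals only. Control animal d had 2.20 CPM and mutant animals b, c and d had 0.897, 8.95 and 3.07 CPM, while control animals a, b and c and mutant animal a had 0 counts. It was at 0 in 6 of 11 libraries, where the median for 564 tested genes within 20% of its mean level was 1, with quartiles of 0 and 3. The log2 fold change was 2.55 ± 2.04 (SE; 95% interval -1.89 to 6.98) with an edgeR Benjamini-Hochberg adjusted p of 0.905. Without mutant animal c, which held 302 of the 450 mutant counts, it was 1.27 (edgeR adjusted p = 0.9999). The same 4 animals had the highest summed CPM of 12 photoreceptor markers, at 264 in control animal d and 233, 1043 and 256 in mutant animals b, c and d. In the 4 animals without Fam19a3 counts the photoreceptor sums were 29.9, 53.3 and 78.7 CPM (control animals a, b and c) and 29.1 CPM (mutant animal a). The sum of 8 bipolar markers split the animals in the same way, at 91.9, 88.9, 264.8 and 131.6 CPM in the 4 animals with Fam19a3 counts and 53.96 to 61.4 CPM in the others. Both lists were picked after the values were seen, and the sums of the other marker lists did not split the animals in this way. The horizontal markers, for 1, were at 108.6 CPM in mutant animal a and 97.9 CPM in mutant animal b. The part of other retinal cells in the Fam19a3 counts was not tested. Fam19a3 (chromosome 3, 104767406 to 104781840) shares 275 exonic bases with the transcript Gm43584 on the same strand, which is not among the genes of the files.

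**Figure D3:**
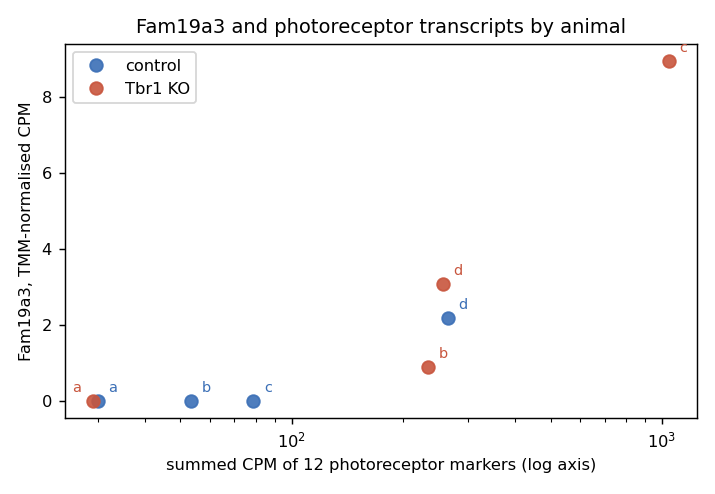
Fam19a3 in TMM-normalised CPM (vertical axis) against the summed CPM of 12 photoreceptor markers (horizontal log axis), 1 point per animal, lettered and coloured by genotype. The 4 animals with Fam19a3 counts lie at 233 CPM of photoreceptor markers or more, and the 4 at 0 lie at 78.7 CPM or less. This marker list was picked for the plot after the values were seen.

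The summed CPM of the 5 members was 157 ± 26.7 in controls and 110 ± 9.59 in mutants (SD, n = 4 animals), a description that includes the fall of Fam19a4. The share of Fam19a4 in this sum was 34.8% ± 3.32 in controls and 5.43% ± 3.87 in mutants. That of Fam19a5 was 46.1% ± 4.01 and 74.1% ± 8.74, while its own level overlapped between genotypes. On the per-length scale, the order in mutants was Fam19a5 (21.5 to 32.3 CPM per kb), Fam19a2 (1.61 to 6.88), Fam19a4 (0.391 to 1.83), Fam19a3 (0 to 2.00) and Fam19a1 (0.153 to 0.264). In this order Fam19a5 stood clear of Fam19a2, and each later neighbour overlapped the one before it. Fam19a4 fell from percentile 66.5 to percentile 21.5 of the tested genes by mean level per kb.

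**Figure D4:**
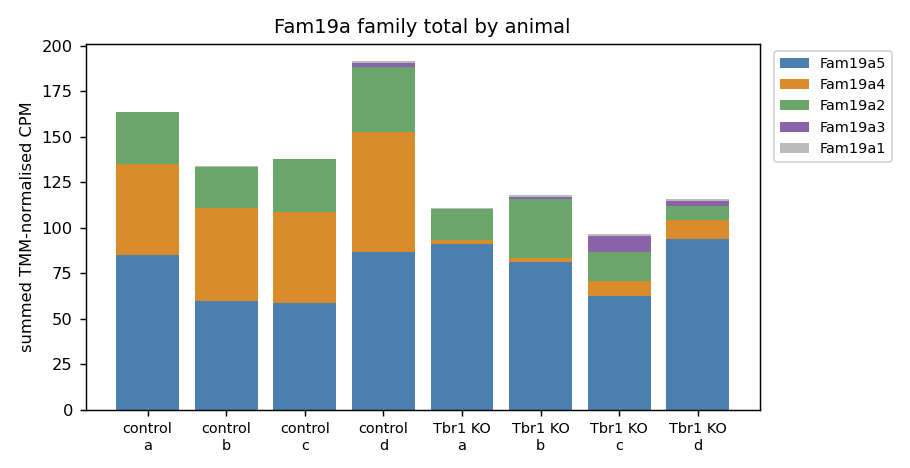
Summed TMM-normalised CPM of the Fam19a family in each animal (vertical axis), with 1 stacked bar per animal and 1 colour per member. The Fam19a4 segment takes 30.5% to 38.2% of the bar in control animals and 2.01% to 8.98% in mutants.

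The genes around Fam19a4 were examined as a set chosen by position. Of 9 protein-coding genes within 1000 kb of Fam19a4, 7 were tested, Fam19a1 among them. None passed the edgeR threshold after Benjamini-Hochberg adjustment, 0 had an unadjusted p under 0.05 and DESeq2 called 0, where over all tested genes edgeR called 0.287% and 7.09% had an unadjusted p under 0.05. DESeq2 called 1.12% of the genes it gave an adjusted p. From 7 genes, a count of 0 cannot be told from these shares. Log2 fold changes ran from -0.87 ± 0.45 (SE) for Eogt, an O-GlcNAc transferase of the endoplasmic reticulum, to 1.21 for Fam19a1, with a median of 0.18. Eogt, whose start lies 88.8 kb beyond that of Fam19a4, averaged 16.9 CPM in control and 9.24 CPM in mutant animals (edgeR adjusted p = 0.771). Tmf1, Uba3 and Arl6ip5, which follow, with starts 119 to 150.3 kb away, had log2 fold changes of 0.18 ± 0.18, 0.09 ± 0.19 and -0.09 ± 0.14 (SE), and their intervals lay between -0.39 and 0.57.

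**Figure D5:**
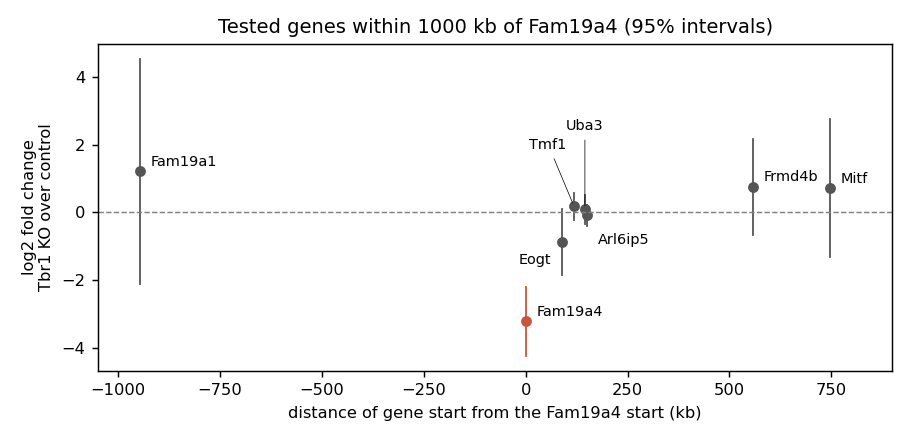
Log2 fold change with its 95% interval (vertical axis) of the 7 tested genes within 1000 kb of Fam19a4 and of Fam19a4 itself, against the distance between gene starts in kb (horizontal axis, positive towards higher coordinates). Fam19a4, chosen for its fall in this contrast and shown as a description, is at -3.21, and the intervals of the 7 others include 0.

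Of 9 genes for proposed Fam19a partners, 6 were tested and 0 were called by edgeR over all genes (1 at an unadjusted p under 0.05, 0 by DESeq2), beside 0.287% called by edgeR, 7.09% at an unadjusted p under 0.05 and 1.12% called by DESeq2 over all genes. Their median log2 fold change was 0.30, against -0.00 over all tested genes. Nrxn2, a neurexin gene, measured 67.2 ± 5.64 CPM in the control animals against 64.1 ± 14.5 in the mutant animals (SD, n = 4 each). Nrxn3, another neurexin gene, was at 107 ± 23.8 and 154 ± 50.3 CPM, with a log2 fold change of 0.51 ± 0.23 (SE), the 1 gene at an unadjusted p under 0.05, and an edgeR adjusted p of 0.683. Lrp1, a large endocytic receptor, was at 74.6 ± 20.8 and 79.1 ± 15.8 CPM. Among the G-protein-coupled receptors, S1pr2 was at 7.77 ± 4.95 CPM in control and 11.1 ± 5.18 CPM in mutant animals (SD, n = 4 each; named, like the other receptors here, after its values were seen). Ccr2 had 0 counts in all libraries, and Fpr1 and Fpr2 had 0 counts over the controls and 103 and 58 over the mutants, too few to pass the filter. Gpr1 had 51 counts over the controls and 512 over the mutants, with overlapping ranges (0 to 1.42 and 1.32 to 4.11 CPM; edgeR adjusted p = 0.784).

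Of 16 genes for other neurexin ligands, 14 were tested, 9 had positive and 5 negative log2 fold changes, and 0 were called by edgeR or by DESeq2. Of the 14, 1 had an unadjusted p under 0.05, beside 7.09% of all tested genes, and the shares called over all genes were 0.287% by edgeR and 1.12% by DESeq2. Their median log2 fold change was 0.07. Nlgn3, a postsynaptic neuroligin, was the most abundant, with 421 ± 98.8 CPM in control and 464 ± 85.6 CPM in mutant animals (SD, n = 4 each). Clstn3 (173 ± 14.2 and 175 ± 27.1 CPM), Dag1 (82.8 ± 18.8 and 84.4 ± 16.6) and Nlgn2 (55.5 ± 13.6 and 52.2 ± 14.9) differed by less than their spread. The 1 member without overlap between genotypes, named after its values were seen, was Nxph1, a secreted neurexophilin. It ranged from 3.39 to 12.3 CPM in control animals and from 0 to 3.37 in mutants, with a log2 fold change of -3.12 ± 1.38 (SE) and an edgeR adjusted p of 0.683. Non-overlap was seen for 5.06% of all tested genes.

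Of 12 chemokine ligand genes, 5 were tested and 0 were called by edgeR or by DESeq2, beside 0.287% of all tested genes called by edgeR and 1.12% by DESeq2. None had an unadjusted p under 0.05, beside 7.09% of all tested genes, and the median log2 fold change was -0.45. Cx3cl1, the membrane-bound chemokine of neurons, measured 129 ± 54.8 CPM in control and 91.3 ± 21.6 CPM in mutant animals, and Ccl27a at 71.8 ± 8.25 and 68.7 ± 9.81 CPM (SD, n = 4). Ccl25 was at 6.64 and 8.72 CPM and Cxcl16 at 4.20 and 1.28 CPM. Fam19a5 was thus counted at a CPM close to that of Ccl27a, and per kb Ccl27a was at 30.2 CPM per kb in controls against 24.95 for Fam19a5.

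The genes whose level followed Fam19a4 most closely were ranked by Pearson correlation of log2 CPM over the 8 animals, among 7725 named genes with a mean of at least 16 CPM. The animals form 2 groups by genotype, so these values mainly describe a shared difference between genotypes. The first 5 were Rgs4, a regulator of G-protein signalling (r = 0.980), Pomt1, a protein O-mannosyltransferase (0.970), Rmst, a long non-coding RNA (0.968), Rnd3, a small GTPase (0.966), and Calb2, which encodes calretinin (0.963). For deviations from each genotype's mean, r was 0.876, 0.905, 0.926, 0.743 and 0.727 in that order, over the animals that also picked the genes. Pomt1 measured 40.8 ± 3.53 CPM in control and 26.3 ± 5.15 CPM in mutant animals (SD, n = 4). Rmst was at 29.1 ± 4.36 and 13.8 ± 5.07 CPM. Neither passed the edgeR test over all genes (Benjamini-Hochberg adjusted p = 0.465 and 0.303), whereas Rgs4, Rnd3 and Calb2 did. Over all tested genes, 0.287% were called. The ranking itself picks genes that differ by genotype in these same animals, so the calls carry no further weight.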

How the data were processed

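Sorted pools were sequenced from a single end after Smart-seq2 and Nextera XT, per the labels' protocols. The authors deposited a table of raw read counts by gene symbol for every library. The submitters' processing notes list HTSeq 0.6.1, TopHat2 2.0.10 and Trimmomatic 0.32 and the build GRCm38 (mm10). The gene models and strand setting of the counting were not given in the sources used here, and this library chemistry does not mark strand.

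Lines that name no gene held 36.1% to 39.9% of listed reads and were left out. Counts were summed per animal, scaled with TMM after filterByExpr, and tested with robust quasi-likelihood in edgeR 4.0.16 (R 4.3.3), adjusted by Benjamini-Hochberg over all genes (threshold 0.05). Standard errors are the log2 fold change over the square root of F. Log2 CPM used a prior count of 0.5. The fit was tried on simulated data for 4 against 4 animals (13628 genes), drawn with the trended dispersion. It recovered 64% of 100 genes given a 2-fold change and 99% of 100 given a 4-fold change, and made 7 false calls. The changed genes all had a mean of at least 16 CPM. These shares therefore do not cover lower genes such as Fam19a1 and Fam19a3. The alternatives tried were the library or 1 library per animal as replicate, a replicate block, scalings, filters, a fit without robust, DESeq2 1.42.0 and leaving out each animal. Named genes were the members, up to 4 of the most abundant genes of each list (or those called), and the 5 most like Fam19a4, leaving out predicted genes, clone names and pseudogenes. Members, lists and rules were chosen with earlier results of these data known. The neighbour window, promoter motifs, comparisons of zeros and the marker lists set beside Fam19a3 were chosen after the values were seen. All 5 symbols matched RefSeq through synonyms. Values of 1 list member are not reported here. Plots used matplotlib 3.10.9.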

Additional observations from a re-analysis of the deposited data

Results flagged for a closer look

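Fam19a values were searched for single samples far from the rest in 20 groups (5 members, by genotype, over animals and over libraries), and 5 were found. A chance rate of about 1 in 20 does not hold here. Groups over animals and over libraries share samples, and where all other values are 0 any count stands apart. Control animal d was the highest control for Fam19a4, at 65.6 CPM, with the 3 others between 49.9 and 51.2 CPM. For Fam19a3, control animal d was the 1 control animal with counts, at 2.20 CPM (2.19 CPM as library 5 scaled among libraries), and mutant library 5 was the highest mutant library, at 8.94 CPM. For Fam19a1, mutant library 2 was at 0 CPM, below the 5 other mutant libraries. That library also had 0 counts of Fam19a4 and Fam19a3.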

How the results depend on the processing

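Leaving out 1 animal at a time, the log2 fold change of Fam19a4 ran from -3.65 to -2.94. In 1 of its 17 alternatives, that without control animal b (-3.24), it just missed the threshold. As this contrast chose the family, how often Fam19a4 was called carries no further weight. None of the 5 members reversed in direction, and none of the 4 other members was called, in any alternative run. For Fam19a3 the log2 fold change was 9.93 without control animal d, where all remaining controls are at 0 and the value depends on the prior count, and 1.27 without mutant animal c, which held 302 of the 450 mutant counts. The number of genes called over the whole table was 40, with 84 when the library was the replicate, 156 by DESeq2 and 17 to 44 leaving out each animal. Fam19a1 and Fam19a3 were removed by a filter of 1 CPM in 4 animals and have no value there. Library numbers are shared between genotypes, and same-numbered libraries had correlations of deviations from -0.03 to 0.14 over genes. It was over 0.1 in 1 of 5 pairs, so the numbers were not taken to pair the samples. Of the 5 control libraries, 3 correlated best with their own number among mutant libraries 1 to 5, a hint from the data and not from the design. With the library number as a replicate block, 43 genes were called and the log2 fold change of Fam19a4 was -4.26. Whether the libraries of animals other than the named pairs were handled together is not given, so p-values measure the spread between these animals only.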
